A study of Mus musculus with 11 samples.

Results

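The genes described here belong to families of enzymes that write and erase acetyl marks on histones, though some members act mainly on other substrates. They were taken by name as 31 genes: 11 zinc-dependent histone deacetylases (Hdac1 to Hdac11), 7 sirtuins (Sirt1 to Sirt7) and 13 histone acetyltransferases. All 31 were found among the 48709 gene identifiers of the count files and all 31 were among the 17293 genes with enough counts to be tested. RNA came from the CA1 field of the hippocampus, a region needed for memory, of mice 3 months old. The tested animals were CamkdeltaC transgenic mice (6 libraries) and the comparison animals were littermate controls without a stated transgene (5 libraries). The labels do not state what drives the transgene. As background not taken from them, CamkdeltaC lines used to model heart failure overexpress the C splice variant of CaMKII delta, a calcium/calmodulin-dependent kinase, from a promoter of heart muscle. Males and females were both used, and the labels give neither the sex, litter or strain background of a library nor whether each came from its own animal, so p-values measure spread among libraries and part of it may be technical. The title of the study asks how heart failure is linked to impaired memory through epigenetic control of genes.

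Acetyltransferases move an acetyl group from acetyl-CoA to lysines of histone tails, which loosens chromatin and is read by bromodomain proteins. Deacetylases of classes I, IIa, IIb and IV remove it with a zinc ion, and sirtuins remove it with NAD as a cosubstrate. In the hippocampus these enzymes are studied for their part in memory: CREB-binding protein (Crebbp) and p300 (Ep300) are coactivators of activity-dependent genes, Hdac2 and Hdac3 restrain memory formation in mice, and class IIa deacetylases leave the nucleus when kinases of the calcium/calmodulin family phosphorylate them.

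Total counts were 24403918 to 34153726 in transgenic libraries and 14263784 to 36898689 in control libraries, the lowest being control 5. Counts of a single member in a single library ran from 65 for Hdac1 to 8907 for Hdac5. All 6 listed markers of CA1 pyramidal neurons were detected, at a summed level of 1160 to 1521 CPM (counts scaled to library size) in transgenic and 1023 to 1325 CPM in control libraries. Markers of dentate, CA3, oligodendrocyte, microglia, astrocyte, endothelium and interneurons were detected as well. The 5 dentate markers summed to 49.0 to 152 CPM in transgenic and 41.5 to 175 CPM in control libraries. The 5 CA3 markers summed to 575 to 806 CPM in transgenic and 558 to 678 CPM in control libraries. Camk2d, the gene of the transgene, averaged 67.8 ± 36.7 CPM in transgenic (SD, n = 6) and 72.0 ± 18.6 CPM in control CA1 (SD, n = 5), and the exact permutation p, two-sided over 462 splits, was 0.567. If the promoter is one of heart muscle, which the labels do not state, this level does not test them. Libraries also differed in how far the deviation of a gene's log2 CPM from its mean followed the GC content of its transcript. The slope per 10 GC points was -0.061 to 0.274 in transgenic and -0.220 to -0.062 in control libraries. It was nearly flat in transgenic 5, at 0.016, and transgenic 6 and control 2 were next to each other at -0.061 and -0.062. Every transgenic slope still lay above every control slope, so this trend and genotype cannot be told apart. Removal of the trend may take out part of a genotype effect as well. Fold changes of the called members are therefore given both without correction and after that trend was removed in each library.

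Without correction, 7 of the 31 genes passed the threshold, a Benjamini-Hochberg adjusted p under 0.05 in edgeR's quasi-likelihood test over all 17293 genes. That is 22.6% of the members, against 17.9% of all genes tested. The deacetylases Hdac5 and Hdac11, the sirtuins Sirt2 and Sirt3 and the acetyltransferase Kat5 rose (5 of 31, against a rise in 7.41% of all genes). The coactivators Ncoa2 and Ep300 fell (2 of 31, against a fall in 10.5% of all genes). The called changes lay between -0.23 and 0.25 on the log2 scale. The CPM ranges of the groups were apart for 4 of the 31, against 7.77% of all genes: Hdac5 and Hdac11 higher, Ncoa2 and Ep300 lower. After removal of the GC trend 3 of the 31 passed (9.68%, against 1.98% of all genes): Sirt3 rose (background 1.16%) and Ncoa2 and Ep300 fell (background 0.821%). Markers of other cells moved as well. Of 11 microglia markers 5 rose, and their summed level was 382 to 498 CPM in transgenic and 345 to 416 CPM in control libraries. Of 8 astrocyte markers 3 rose and 1 fell, at 4771 to 5678 CPM in transgenic and 5458 to 6115 CPM in control libraries. Of 7 interneuron markers 2 rose, at 1233 to 1391 CPM in transgenic and 1149 to 1235.5 CPM in control libraries. Of 5 endothelial markers 1 fell, at a median fold change of -0.18 and a sum of 111 to 148 CPM in transgenic and 124 to 175 CPM in control libraries. After GC removal none of these markers was called. Fold changes were then above 0 for all 11 microglia, 7 of 8 astrocyte and 5 of 7 interneuron markers, and below 0 for all 5 endothelial markers. None of these markers was at 0 in the libraries. Their part in the results was not tested. In bulk RNA of this kind a change in the number of cells of a type cannot be told apart from a change in RNA per cell.

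The stretches just before the annotated starts of the 3 rising genes with the largest fold are shown, as they carry the largest of the called rises. All 3 lost their call once the GC trend was removed. They were taken from RefSeq promoters on build GRCm38.p6 and cut to the part that lies in no annotated exon. Promoters were listed for 25 of the 31 members. Capitals mark a GC box (GGGCGG) or a CCAAT box (CCAAT) on either strand.
Hdac5, chr11:102230173-102230422, minus strand: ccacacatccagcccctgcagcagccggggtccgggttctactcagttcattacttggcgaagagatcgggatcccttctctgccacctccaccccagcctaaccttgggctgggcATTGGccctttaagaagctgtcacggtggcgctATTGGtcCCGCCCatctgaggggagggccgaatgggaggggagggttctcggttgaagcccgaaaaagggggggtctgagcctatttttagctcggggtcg
Hdac11, chr6:91156565-91156664, plus strand: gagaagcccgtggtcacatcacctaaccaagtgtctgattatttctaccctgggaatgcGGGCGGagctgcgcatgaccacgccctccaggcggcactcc
Sirt2, chr7:28766641-28766734, plus strand: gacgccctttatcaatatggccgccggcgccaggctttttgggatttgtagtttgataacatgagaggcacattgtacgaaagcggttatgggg
The Hdac5 stretch held 2 CCAAT boxes and 1 GC box, which do not overlap. Of 32851 promoters in the table, 33.8% held a CCAAT box and 32.7% a GC box in the same window. The Hdac11 stretch held 1 GC box, as did 10.5% of promoters in its window, and the Sirt2 stretch held neither motif. The cAMP response element (TGACGTCA) was searched on both strands as well and had 0 matches in the 3 stretches. It was in 1.55% of promoters over the window of Hdac5. These matches describe letters only.

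Levels between genes were compared per length, as TPM, the count per base of a gene's united exons scaled to the same total in each library. Hdac11 led the deacetylases with a mean of 161 TPM over the 11 libraries, followed by Hdac5 at 121, Hdac3 at 106 and Hdac2 at 71.6 TPM. Hdac1, the paralog of Hdac2, was the lowest at 6.36 TPM. Sirt2, which is abundant in oligodendrocytes, led the sirtuins at 117 TPM, and the mitochondrial Sirt4 came next at 38.3 TPM, close to Sirt7 at 36.3 and Sirt3 at 35.1 TPM. Among acetyltransferases, Ncoa1 at 102 and Kat2a at 96.0 TPM were highest, while Ep300 and Crebbp stood close together at 27.5 and 26.4 TPM. The order depends on the length used: on the longest annotated transcript Sirt2 stood at 219, Hdac11 at 183 and Hdac5 at 154 TPM. On that length Sirt3 at 51.3 and Sirt7 at 44.8 TPM stood above Sirt4 at 40.1 TPM, and Kat7 at 84.3 TPM above Kat2a at 80.2 TPM.

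**Figure D1:**
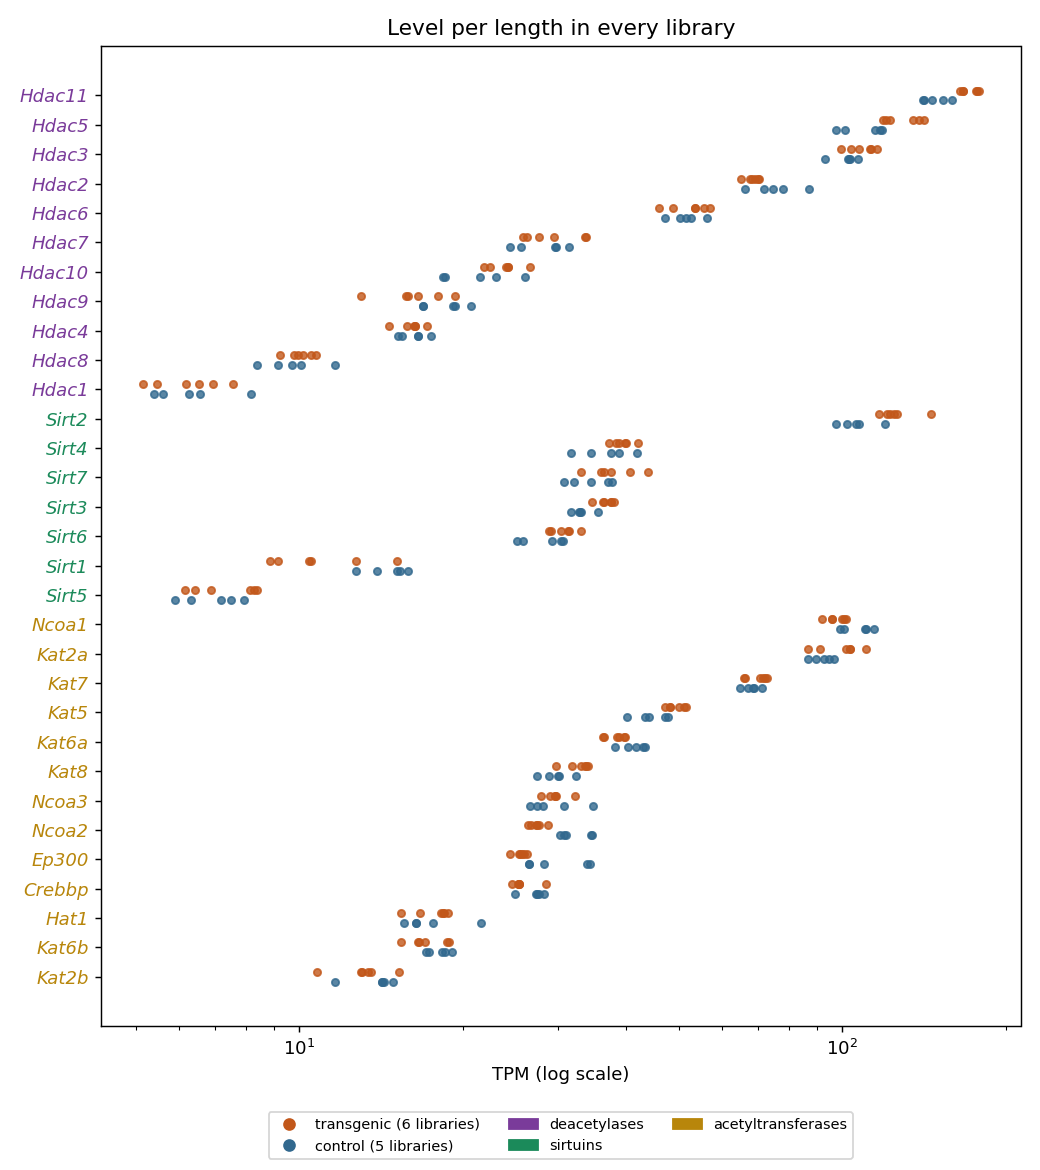
Level of each of the 31 genes in TPM on a log axis, 1 point per library, with the 6 transgenic libraries above the 5 control libraries in each row and genes sorted by mean level within deacetylases, sirtuins and acetyltransferases. Hdac11, Hdac5, Hdac3, Sirt2 and Ncoa1 averaged over 100 TPM, and Hdac1 and Sirt5 were lowest, at means of 6.36 and 7.19 TPM.

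Class I deacetylases (Hdac1, Hdac2, Hdac3 and Hdac8), of which Hdac1, Hdac2 and Hdac3 are catalytic subunits of nuclear corepressor complexes, gave no call. Hdac2 ranged from 71.2 to 77.3 CPM in transgenic libraries, with a median of 74.3 CPM, and had 76.6, 72.1, 95.1, 87.5 and 78.4 CPM in control libraries. Control 1 and 2 lay inside the transgenic range and the other 3 controls above it. Its fold change was -0.14 (SE 0.07, adjusted p 0.149) without correction and 0.12 (adjusted p 0.342) after the GC trend was removed, so its direction turned. Hdac3, the enzyme of the NCoR and SMRT complexes, ranged from 97.2 to 114 CPM in transgenic and 92.2 to 105 CPM in control libraries, a fold change of 0.10 (SE 0.05, adjusted p 0.202). With the GC trend removed Hdac3 was at 0.16 (SE 0.06, adjusted p 0.151), and was then called in 1 of 11 fits that left out 1 library. Without correction Hdac1 was at -0.03 and the X-linked Hdac8 at 0.04. After removal of the trend Hdac8 had the largest class I value, 0.24 (SE 0.09, adjusted p 0.184). The summed class I level, not corrected for GC content, was 194 ± 5.88 TPM in transgenic (SD, n = 6) and 193 ± 4.76 TPM in control CA1 (SD, n = 5). With the GC trend removed the class I median fold change was 0.14, with 3 of 4 above 0, against 8511 of 17293 genes tested.

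Of the class IIa enzymes, whose repressive action depends on partners such as MEF2 factors and on their shuttling between nucleus and cytoplasm, Hdac5 was called. Hdac5 (chr11:102194432-102230166, minus strand, on mm10) had 294, 290.2, 305, 252, 265 and 254 CPM in transgenic 1 to 6 and 241, 249.9, 209, 224 and 244 CPM in control 1 to 5. Every transgenic library lay above every control, though transgenic 4 was at 252 CPM and control 2 at 249.9 CPM. The CPM ranges of the groups were apart in this direction in 3.04% of all genes. Hdac5 rose by 0.25 (SE 0.07, edgeR adjusted p 0.0267). It missed the threshold, at adjusted p of 0.0563 to 0.0707, without transgenic 1, 2 or 3 or control 3 or 4. Hdac5 transcripts are GC-rich (59.8%), and with the GC trend removed its fold change was 0.05 (SE 0.04, adjusted p 0.576), with overlapping groups. Hdac4, which is linked to synaptic plasticity and memory in mice, was at -0.01 (adjusted p 0.933), Hdac7 at 0.07 (0.578) and Hdac9 at -0.17 (SE 0.08, 0.161). Hdac7, like Hdac5 rich in GC at 60.2%, turned to -0.13 after the removal. The log2 ratio of Hdac4 to Hdac5 averaged -2.16 ± 0.09 in transgenic (SD, n = 6) and -1.90 ± 0.17 in control libraries (SD, n = 5), and the ranges overlapped. That difference of -0.25 went to -0.15 with the trend removed from both genes.

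Class IIb, which holds the cytoplasmic tubulin deacetylase Hdac6 and the polyamine deacetylase Hdac10, gave no call. Hdac6 ranged from 64.4 to 80.5 CPM in transgenic and 67.1 to 77.1 CPM in control libraries. Its fold change was 0.03 (adjusted p 0.773). Hdac10 was at 0.16 (SE 0.09, adjusted p 0.213) and went to 0.01 with the GC trend removed. Class IV has a single member, Hdac11, an enzyme that removes long fatty acyl groups from lysines more readily than acetyl groups. Hdac11 (chr6:91156665-91174692, plus strand) had 165, 166, 169, 155, 156 and 155 CPM in transgenic 1 to 6 and 134, 149, 133, 136 and 139 CPM in control 1 to 5, with no overlap. Such a separation, higher in the transgenic group, was found in 3.04% of all genes. Hdac11 rose by 0.22 (SE 0.05, edgeR adjusted p 0.0133), and it stayed past the threshold in each of the 11 fits that left out 1 library, at adjusted p of 0.00499 to 0.0397. Its share of all deacetylase transcripts was 27.1% ± 0.44 in transgenic (SD, n = 6) and 25.2% ± 0.59 in control libraries (SD, n = 5), with ranges apart. That share rests on the same Hdac11 counts and was not corrected for GC content. Hdac11 transcripts hold 57.4% GC, and with that trend removed the fold change was 0.05 (SE 0.03, adjusted p 0.465) and the groups overlapped.

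**Figure D2:**
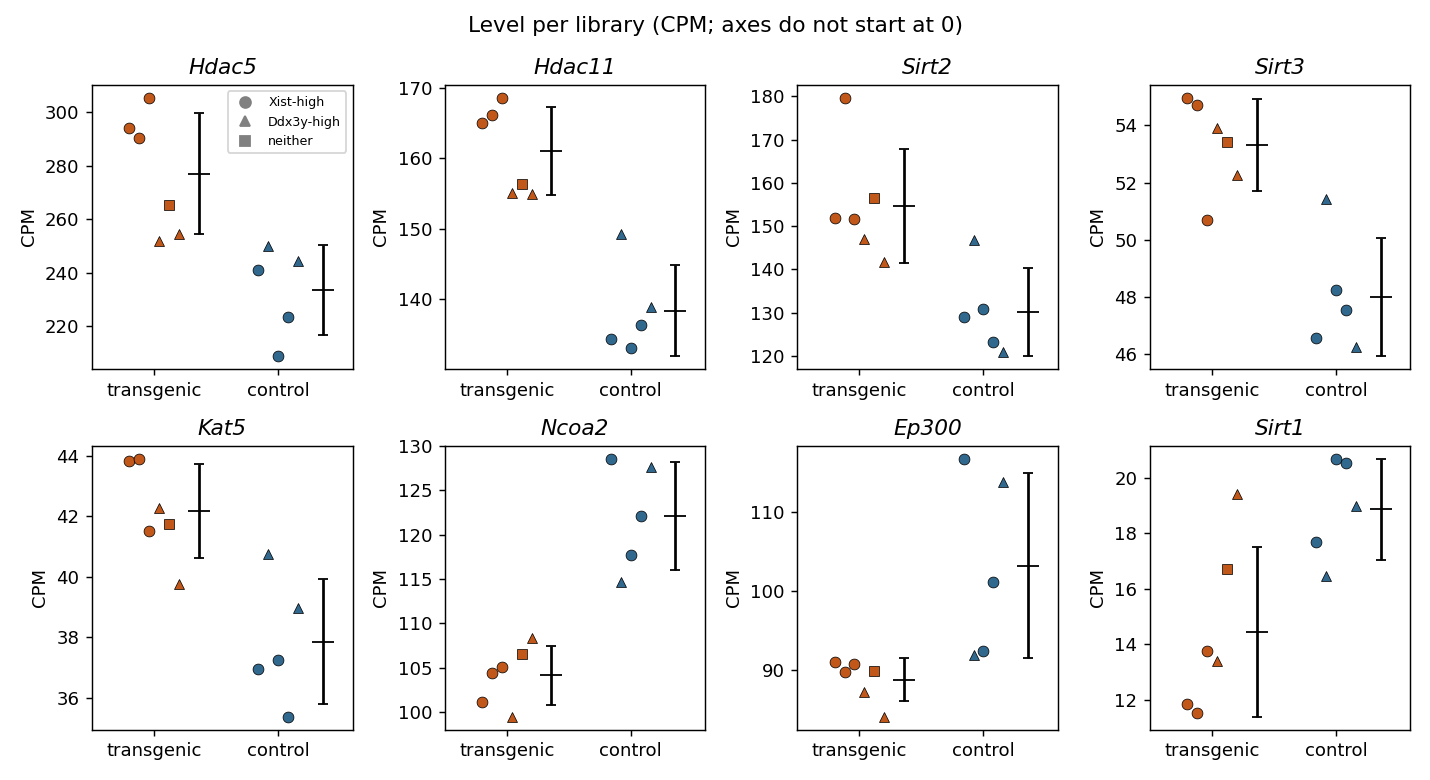
CPM of 8 genes per library, transgenic left of control, each panel on its own axis that does not start at 0, with a bar for mean ± SD (n = 6 and n = 5). Circles are libraries with high Xist, triangles libraries with high Ddx3y and the square the library with neither. Hdac5 and Hdac11 are higher, and Ncoa2 and Ep300 lower, in every transgenic library than in any control, while Sirt2, Sirt3, Kat5 and Sirt1 overlap.

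Sirtuins are spread over compartments: Sirt1, Sirt6 and Sirt7 are mainly nuclear, Sirt2 mainly cytoplasmic, and Sirt3, Sirt4 and Sirt5 mitochondrial. Without correction 6 of 7 had a fold change above 0, against 8910 of 17293 genes tested. Sirt2 and Sirt3 rose, 28.6% of the 7, against 7.41% of all genes. The median was 0.13, against 0.01 over all genes tested, and 0.01 with the GC trend removed. With that trend removed 4 of 7 lay above 0, against 8511 of 17293 genes, and Sirt3 alone rose, against 1.16% of all genes. Sirt2 (chr7:28766735-28788661, plus strand), a tubulin and histone deacetylase, had 152, 179.7, 152, 147, 157 and 142 CPM in transgenic 1 to 6 and 129, 147, 131, 123 and 121 CPM in control 1 to 5. Control 2 lay within the transgenic range and the other controls below it. Sirt2 rose by 0.25 (SE 0.07, edgeR adjusted p 0.0265), and by 0.13 without a call (SE 0.05, adjusted p 0.227) with the GC trend removed. The adjusted p was 0.0506 to 0.0707 without transgenic 2 or 3 or without control 1, 3, 4 or 5. Oligodendrocyte markers, from the cell type with much Sirt2, summed to 3781 to 6542 CPM in transgenic and 3169 to 5404 CPM in control libraries. None of these 12 markers was called and none was at 0. Of the 12, 10 had a fold change above 0 without correction and all 12 did with the GC trend removed. Their part in the Sirt2 result was not tested.

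Sirt3 (chr7:140863666-140882309, minus strand), the main deacetylase of the mitochondrial matrix, was called both ways. It had 55.0, 54.7, 50.7, 53.9, 53.4 and 52.3 CPM in transgenic 1 to 6 and 46.6, 51.4, 48.2, 47.6 and 46.3 CPM in control 1 to 5. Transgenic 3 lay below control 2, and the other libraries did not cross. Sirt3 rose by 0.15 (SE 0.04, edgeR adjusted p 0.0361). With the GC trend removed it rose by 0.22 (SE 0.04, adjusted p 0.0320), and its log2 CPM was then 5.77 ± 0.06 in transgenic (SD, n = 6) and 5.54 ± 0.07 in control libraries (SD, n = 5), with no overlap. The share of all genes whose groups keep apart after this removal was not computed. Sirt3 was also called with the length trend removed (0.18, adjusted p 0.0294) and with both trends removed (0.23, adjusted p 0.0386). Single libraries moved it past the threshold: without correction it was called without transgenic 6 or control 2 and had adjusted p of 0.0504 to 0.0853 without any other library. After removal of the GC trend it was called without transgenic 5, transgenic 6 or control 2, and had adjusted p of 0.0596 to 0.0948 without any other.

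Sirt3 also shares sequence with its neighbours, and the kit did not keep strand, so reads of overlapping exons cannot be assigned. It shares 342 exonic bases with Psmd13, a proteasome subunit gene on the opposite strand whose start lies 341 bases away, and 418 with Ric8a, a chaperone of G proteins. Psmd13 had a fold change of 0.12 (edgeR adjusted p 0.0802) and Ric8a rose by 0.18 (adjusted p 0.0250). With the GC trend removed, where Sirt3 was at 0.22, Psmd13 was at 0.02 (adjusted p 0.883) and Ric8a at 0.05 (adjusted p 0.530). Sirt2 shares 42 bases with Nfkbib, which rose by 0.22 (adjusted p 0.0448) and was at 0.04 (adjusted p 0.775) with the GC trend removed.

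Sirt1, a nuclear deacetylase whose loss impairs memory in mice, had the lowest fold change of the 31, without a call. It had 11.8, 11.5, 13.8, 13.4, 16.7 and 19.4 CPM in transgenic 1 to 6 and 17.7, 16.5, 20.7, 20.5 and 19.0 CPM in control 1 to 5. Transgenic 5 and 6 lay within the control range and the other 4 below it. The fold change was -0.38 (SE 0.13, edgeR adjusted p 0.0538), and -0.23 (SE 0.10, adjusted p 0.229) with the GC trend removed. The call came without transgenic 5, transgenic 6 or control 2, the lowest adjusted p being 0.00561. It also came with DESeq2 (-0.39, adjusted p 0.0240) and with limma voom, libraries weighted by quality (-0.44, adjusted p 0.00916). In edgeR it came with Xist as a covariate (-0.42, adjusted p 0.0321) and when libraries were blocked by their number (-0.50, adjusted p 0.00336). Under GC removal the call came with that block (-0.32, adjusted p 0.0421) and without transgenic 6 (-0.31, adjusted p 0.0437). Without any other single library the adjusted p was then 0.182 to 0.402.

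The other sirtuins were not called. Sirt4, which acts on mitochondrial metabolic enzymes, had 24.4, 23.4, 23.5, 22.5, 22.7 and 21.5 CPM in transgenic and 24.0, 21.8, 18.6, 20.8 and 21.9 CPM in control libraries, which overlap. Sirt4 was at 0.10 (adjusted p 0.291) and Sirt5, a desuccinylase, at 0.09 (0.549). Sirt6, of telomere and DNA repair, was at 0.13 (0.162) and the nucleolar Sirt7 at 0.15 (0.165). With the GC trend removed Sirt4, Sirt6 and Sirt7 were between -0.05 and 0.01, and Sirt5 was at 0.14 (adjusted p 0.528).

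The 13 acetyltransferases had a median fold change of -0.06, and of -0.04 with the GC trend removed. Of the MYST family Kat5, the TIP60 enzyme of the NuA4 complex, was called. Kat5 (chr19:5603014-5610237, minus strand) had 43.8, 43.9, 41.5, 42.3, 41.8 and 39.8 CPM in transgenic and 36.9, 40.7, 37.2, 35.4 and 39.0 CPM in control libraries. Only transgenic 6 lay below control 2, and the rest kept apart. It rose by 0.16 (SE 0.05, edgeR adjusted p 0.0453), and went to 0.03 (SE 0.04, adjusted p 0.738) with the GC trend removed and 0.13 (adjusted p 0.0812) with the length trend removed. It was called without transgenic 6 or control 2, and had adjusted p of 0.0597 to 0.117 without any other library. It shares 426 exonic bases, 12.1% of its exons, with Rnaseh2c on the opposite strand, which rose by 0.39 (adjusted p 0.0144) at a mean of 8.47 CPM and was at 0.21 (adjusted p 0.161) with the GC trend removed. Kat6a and Kat6b, subunits of the MOZ and MORF complexes, were at -0.10 (SE 0.04, adjusted p 0.105) and -0.07 (0.401). Kat7, the HBO1 enzyme that works with BRPF and JADE proteins, was at 0.04 (0.602), and Kat8, the MOF enzyme of the MSL and NSL complexes, was at 0.14 (0.133).

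Kat2a, the GCN5 subunit of the SAGA and ATAC complexes, had 93.3, 87.8, 86.7, 86.5, 78.0 and 72.6 CPM in transgenic and 78.4, 78.4, 73.5, 78.3 and 79.2 CPM in control libraries. Transgenic 1 to 4 lay above all controls, and transgenic 6 below them. Its fold change was 0.12 (adjusted p 0.192), and -0.05 with the GC trend removed. Kat2b, its PCAF paralog, was at -0.06 (adjusted p 0.625). Hat1, which acetylates newly made histones in the cytoplasm, was at 0.01 (adjusted p 0.959).

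Ep300 (chr15:81585351-81652077, plus strand), the p300 coactivator, had 91.0, 89.7, 90.8, 87.2, 89.9 and 84.1 CPM in transgenic 1 to 6 and 117, 91.9, 92.4, 101 and 114 CPM in control 1 to 5. Every transgenic library was below every control, by a narrow margin between transgenic 1 and control 2. Such a separation, lower in the transgenic group, was found in 4.73% of all genes. Ep300 fell by 0.22 (SE 0.07, edgeR adjusted p 0.0393), and by 0.27 (SE 0.06, adjusted p 0.0446) with the GC trend removed, with no overlap either way. The share of all genes so separated was not computed after the removal. The level was 88.8 ± 2.67 CPM in transgenic (SD, n = 6) and 103 ± 11.7 CPM in control CA1 (SD, n = 5), so the controls varied more. It was called without transgenic 6, control 2 or control 3, and had adjusted p of 0.0506 to 0.101 without any other library. After that removal it was called without transgenic 6 or control 2, and had adjusted p of 0.0549 to 0.128 without any other. Its paralog Crebbp was at -0.07 (SE 0.05, adjusted p 0.354) and, after removal, at -0.14 (SE 0.04, adjusted p 0.0737). The log2 ratio of Crebbp to Ep300 averaged -0.06 ± 0.05 in transgenic (SD, n = 6) and -0.21 ± 0.15 in control libraries (SD, n = 5), and the ranges overlapped.

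The p160 coactivators Ncoa1, Ncoa2 and Ncoa3 are bound by nuclear hormone receptors and recruit p300 and CREB-binding protein. Ncoa2 (chr1:13139105-13374083, minus strand) had 101, 104, 105, 99.5, 107 and 108 CPM in transgenic 1 to 6 and 129, 115, 118, 122 and 128 CPM in control 1 to 5. No transgenic library reached the lowest control, a separation found in this direction in 4.73% of all genes. It fell by 0.23 (SE 0.05, edgeR adjusted p 0.0123), and its call held in all 11 fits without correction that left out 1 library, at adjusted p of 0.00349 to 0.0387. With the GC trend removed it fell by 0.20 (SE 0.04, adjusted p 0.0320), with no overlap, a separation whose share over all genes was not computed. Ncoa2 was then called without transgenic 5, transgenic 6 or control 2, and had adjusted p of 0.0549 to 0.0982 without any other library. Ncoa1 had 199, 201, 212, 209.7, 211 and 189 CPM in transgenic and 234, 206, 211, 237 and 223 CPM in control libraries, a fold change of -0.13 (SE 0.05, adjusted p 0.104). Ncoa3 was at 0.01 (adjusted p 0.899).

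Ncoa2 and Ep300 have long exons in sum, 15642 and 14273 bases on the union of exons, against a median of 5331 bases over the members. When the trend with length was removed in place of that with GC, Ncoa2 was at -0.04 (edgeR adjusted p 0.480) and Ep300 at -0.04 (adjusted p 0.658), and neither was called. With both trends removed Ncoa2 was at -0.12 (adjusted p 0.0876) and Ep300 at -0.20 (adjusted p 0.0539). Upper-quartile scaling put Ep300 at an adjusted p of 0.0570 and use of all genes without a filter put it at 0.0516, with fold changes of -0.20 and -0.22.

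**Figure D3:**
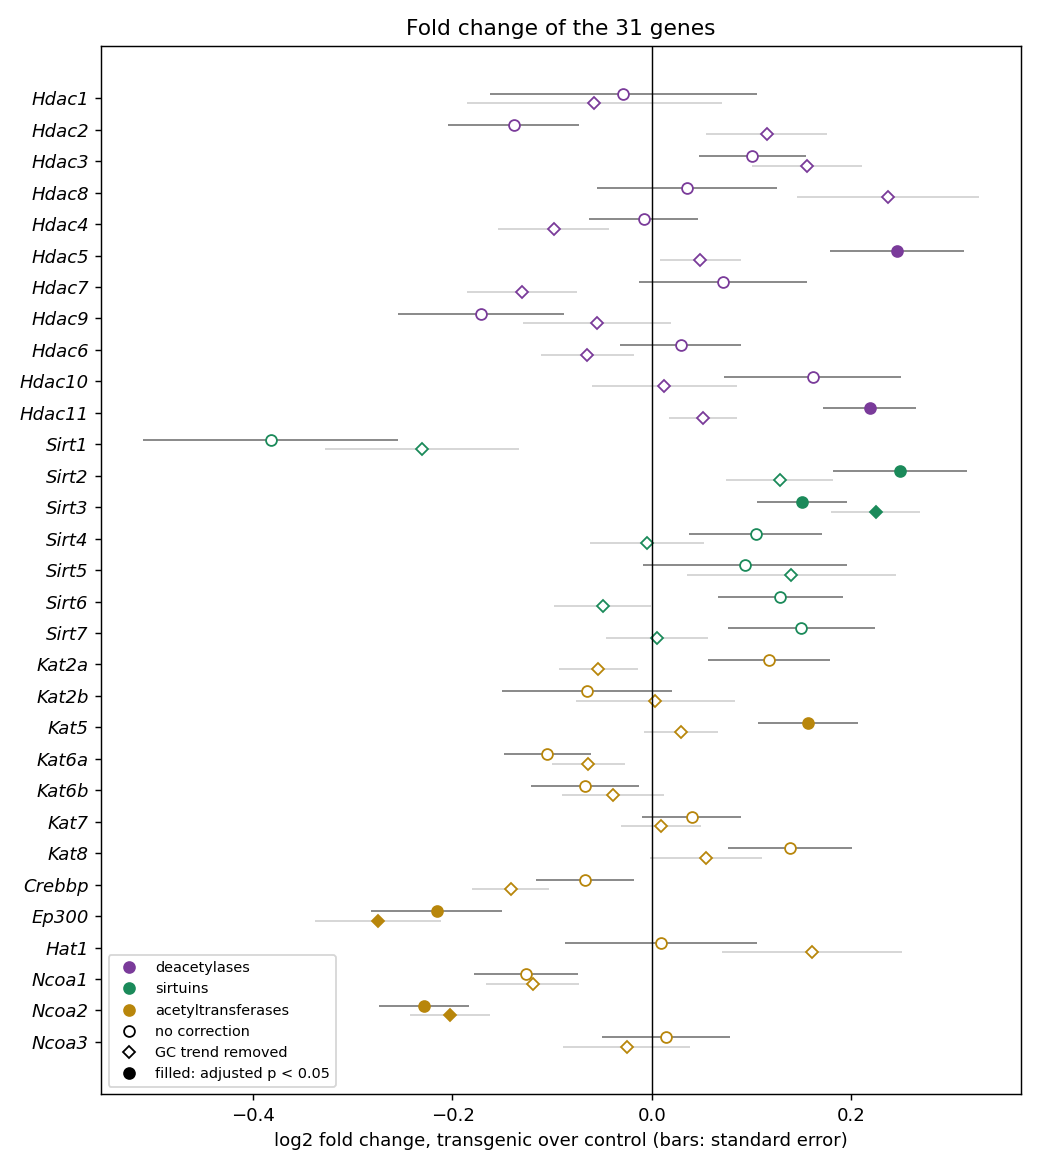
Log2 fold change of transgenic over control for each of the 31 genes with its standard error, without correction (circles) and with the GC trend removed (diamonds), filled where the edgeR adjusted p was under 0.05. Of the 7 filled circles, Hdac5, Hdac11, Sirt2 and Kat5 have open diamonds, while Sirt3, Ncoa2 and Ep300 are filled both ways.

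Across the 31 genes the fold change was higher where GC content was higher. Spearman's rho was 0.622 over 31 genes that share these 11 libraries, against 0.684 over 17246 genes with a GC value, and it is given as a description. Of the 17 members with a GC content of at least 50%, 14 had a fold change above 0, at a median of 0.12. Of the 14 with less, 5 did, at a median of -0.07. With the trend removed rho was -0.184, against 0.014 over all genes with a GC value, and the medians were -0.00 and -0.02. The removal subtracts a curve fitted on GC content. The lower rho and part of the loss of calls at high GC follow from how it is made and are no separate result. The 4 rising genes that lost their call hold between 54.2% and 59.8% GC. Sirt3 at 46.4%, Ncoa2 at 48.0% and Ep300 at 51.1% lie nearer the 49.6% median of all genes tested.

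**Figure D4:**
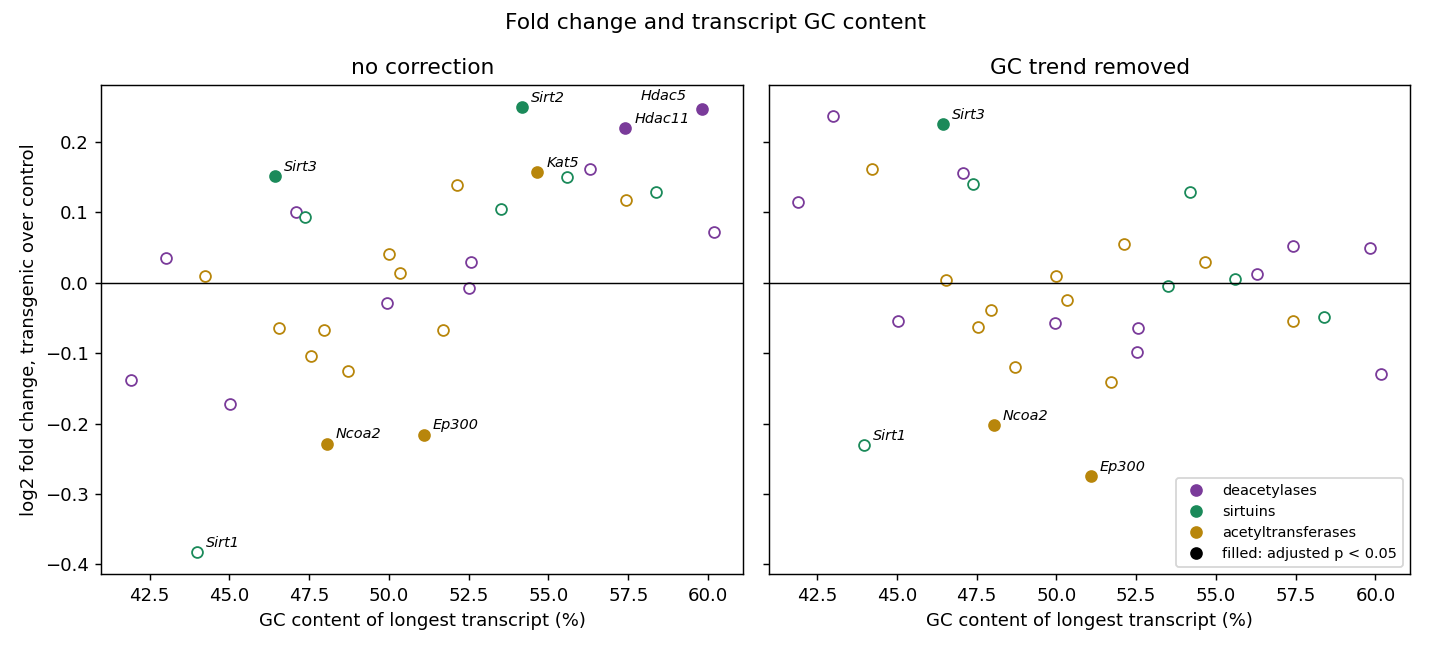
Log2 fold change of transgenic over control against the GC content in percent of the longest transcript, for the 31 genes, without correction on the left and with the GC trend removed on the right, filled where the edgeR adjusted p was under 0.05. The rise from left to right in the first panel (Spearman's rho of 0.622) is absent in the second (-0.184). The removal was fitted on GC content, so that loss follows from how it is made.

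Summed over enzymes, deacetylase transcripts came to 633 ± 25.0 TPM in transgenic (SD, n = 6) and 588 ± 22.4 TPM in control CA1 (SD, n = 5). Sirtuin transcripts came to 289 ± 13.7 TPM in transgenic and 261 ± 14.7 TPM in control CA1. Acetyltransferase transcripts came to 544 ± 15.5 TPM in transgenic and 551 ± 19.9 TPM in control CA1. These sums overlapped between the groups. The ratio of acetyltransferase to deacetylase transcripts was 0.859 ± 0.020 in transgenic and 0.938 ± 0.036 in control libraries. It ranged from 0.836 to 0.889 in transgenic and from 0.880 to 0.974 in control libraries, with transgenic 4 above control 2. The sums are dominated by a few abundant genes. Hdac11 alone made up 26.5% to 27.7% of the deacetylase sum in transgenic and 24.8% to 26.2% in control libraries. Hdac5 made up 19.1% to 21.6% of it in transgenic and 17.3% to 19.5% in control libraries. The sums and their ratio carry no test and no correction for GC content. Some members act mainly on substrates other than histones, so the ratio does not measure histone acetylation. Within libraries, 10 log2 ratios of paralogs or related pairs were computed, and 0 of the 10 had groups that kept apart, with or without removal of the GC trend. Beside Hdac4 to Hdac5, the ratio of Hdac7 to Hdac9 differed by 0.25 (-0.07 with the trend removed) and that of Ncoa3 to Ncoa2 by 0.24 (0.18 with the trend removed).

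Sex-linked transcripts split the libraries across genotype. Xist, expressed from the inactive X of females, was at 591 to 632 CPM in transgenic 1 to 3 and 1020 to 1111 CPM in control 1, 3 and 4. Ddx3y, on the Y chromosome, was at 43.0 and 62.6 CPM in transgenic 4 and 6 and at 64.3 and 75.6 CPM in control 2 and 5. Transgenic 5 was high in neither. In libraries high in Xist, Hdac5 differed by 0.40, Hdac11 by 0.31, Sirt2 by 0.33 and Kat5 by 0.24 in mean log2 CPM. In those high in Ddx3y these differences were 0.03, 0.11, 0.11 and 0.04. Once the GC trend was removed, Hdac5 was at 0.09 and -0.02, Hdac11 at 0.04 and 0.05, Sirt2 at 0.15 and 0.06 and Kat5 at 0.04 and -0.01 in the Xist-high and Ddx3y-high libraries. GC slopes among transgenic libraries moved with this split, at 0.176 to 0.274 in the Xist-high transgenic 1 to 3 and at 0.099 and -0.061 in the Ddx3y-high transgenic 4 and 6. They also fell in order of library number from transgenic 1 to 6, with transgenic 5 at 0.016. The split and the order of the transgenic libraries cannot be told apart. Among controls the slopes of the sets overlapped, at -0.220 to -0.119 in the Xist-high control 1, 3 and 4. The Ddx3y-high control 2 and 5 were at -0.062 and -0.161.

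Ncoa2, Ep300 and Sirt3 had differences of the same sign in both sets. Ncoa2 was at -0.24 where Xist was high and -0.22 where Ddx3y was high, and Ep300 at -0.19 and -0.26. Sirt3 was at 0.17 and 0.12, and at 0.28 and 0.15 with the GC trend removed. Sirt1 was at -0.66 and -0.13. A test of the difference between the sets in edgeR, on 10 libraries without transgenic 5, called 0 of 31 members and 0 of 17169 genes, which is 0% of them. The lowest member adjusted p was 0.279, for Hdac5, whose effects differed by 0.37 (SE 0.10). Without adjustment 5 members had p under 0.05: Hdac5, Hdac10, Hdac11, Sirt1 and Sirt7. After the removal 0 members did, and the lowest adjusted p was 0.975. The Ddx3y-high set held 2 libraries of each genotype.

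**Figure D5:**
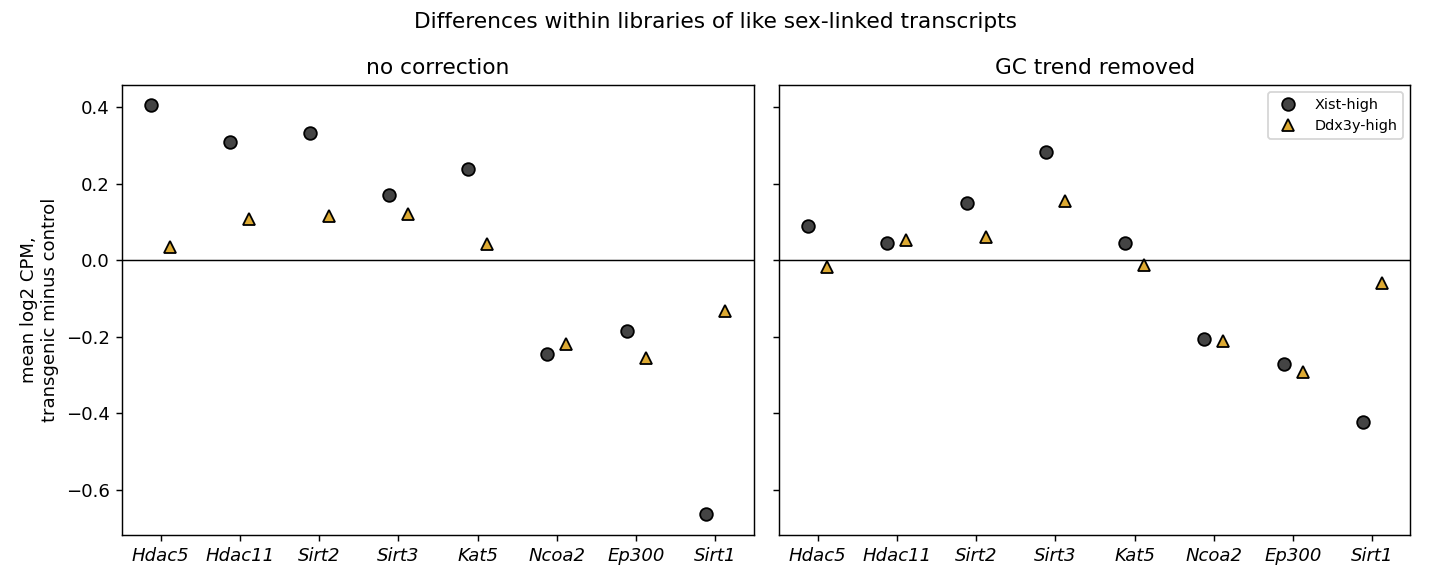
Difference in mean log2 CPM, transgenic minus control, of 8 genes within libraries high in Xist (circles, 3 transgenic and 3 control) and high in Ddx3y (triangles, 2 transgenic and 2 control), without correction on the left and with the GC trend removed on the right. Hdac5 is at 0.40 and 0.03 on the left and at 0.09 and -0.02 on the right, while Ncoa2 stays between -0.25 and -0.20 in each.

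The complexes in which these enzymes act were described with further lists. Of 28 genes of the corepressor complexes tested, which hold class I deacetylases, 1 rose and 5 fell, at a median of 0.05. That is 21.4% called, against 17.9% of all genes tested. Rcor3, of the CoREST complex, averaged 22.2 ± 1.31 CPM in transgenic (SD, n = 6) and 30.4 ± 3.76 CPM in control CA1 (SD, n = 5) and fell by 0.45 (SE 0.08, edgeR adjusted p 0.0107). Tbl1xr1, of the NCoR and SMRT complexes, averaged 79.0 ± 7.73 CPM in transgenic and 105 ± 6.28 CPM in control CA1 and fell by 0.40 (SE 0.07, adjusted p 0.0107). Mier3, of a complex with Hdac1 and Hdac2, averaged 22.3 ± 4.36 CPM in transgenic and 32.8 ± 1.46 CPM in control CA1 and fell by 0.56 (SE 0.11, adjusted p 0.0123). The other called genes were Mier1 at -0.55, Gatad2b at -0.19 and, in the other direction, Mbd3 at 0.26. Only Mier3 was called once the GC trend was removed, at -0.28 (adjusted p 0.0419).

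Of 42 other subunits of acetyltransferase complexes 7 fell and 0 rose. The called share was 16.7%, against 17.9% of all genes tested, of which 10.5% fell and 7.41% rose. The list's median was 0.01, and 22 genes lay above 0 and 20 below. Those with the smallest p were Epc2, of NuA4, which fell by 0.28 (SE 0.07, edgeR adjusted p 0.0227), Atxn7, of SAGA, which fell by 0.24 (SE 0.06, adjusted p 0.0235), and Msl2, of the MSL complex, which fell by 0.28 (SE 0.08, adjusted p 0.0294). After the GC trend was removed these 3 were at -0.09, -0.17 and 0.00 with no call, and 1 other gene, Supt3 of SAGA, rose, by 0.59 (adjusted p 0.0417) against 0.14 (adjusted p 0.284) before. Of 7 further acetyltransferases outside the 31, Naa10, which acetylates protein N termini, rose by 0.23 (adjusted p 0.0496), and was at 0.19 without a call (adjusted p 0.134) after the removal.

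Counts in the remaining lists lay near or below the 17.9% called among all genes, at 15.4% of readers of acetyl-lysine, 18.8% of genes that supply acetyl-CoA or NAD and 5.56% of class IIa partners. Of 13 readers 2 fell, the bromodomain gene Baz2b by 0.21 (edgeR adjusted p 0.0265) and the YEATS domain gene Mllt3 by 0.31 (adjusted p 0.0271). Of 16 supply genes 3 were called. Slc25a1, the mitochondrial citrate carrier, rose by 0.24 (adjusted p 0.0171), Naprt, which makes NAD from nicotinic acid, rose by 0.35 (adjusted p 0.0254), and Nampt, which makes it from nicotinamide, fell by 0.31 (adjusted p 0.0189). Among 18 tested partners and regulators of class IIa deacetylases 1 was called. Mef2a, a transcription factor that class IIa enzymes bind, fell by 0.33 (SE 0.07, adjusted p 0.0147). None of these genes was called with the GC trend removed, Nampt being then at 0.01 and Mef2a at -0.09.

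In the authors' deposited table of changed genes, 8 of the 31 members were listed among 3794 genes, 5 higher and 3 lower in transgenic CA1. Of all listed genes 1780 were higher and 2014 lower. How many genes the authors tested was not known here, so no share of all genes is set beside the 8. The table rests on the same 11 libraries and is no independent check. The 8 members include the 7 called here, with Hdac11 at a log2 fold change of 0.22 (adjusted p 3.65e-04) and Ncoa2 at -0.23 (adjusted p 3.40e-04) in the authors' deposited table. The remaining gene was Sirt1, at -0.38 with an adjusted p of 0.0260 in the authors' deposited table.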

How the data were processed

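Polyadenylated RNA was prepared with a TruSeq kit that does not mark strand and sequenced as single reads of 50 bases, per the labels' protocols. The authors deposited raw counts per gene and library on mm10. The submitters' processing notes name STAR 2.5.2b, Subread 1.5.1, featureCounts and FastQC 0.11.5, whose roles and settings were not given in the sources used here. Tables were deposited too, in which the authors list changed genes with a log2 fold change, an adjusted p-value and a signal per library (counts over a size factor). Names, positions, GC content (longest transcript) and exon length came from GENCODE M21, which named 48349 identifiers and left 360 without a name.

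Counts were tested with edgeR 4.0.16 in R 4.3.3 (filterByExpr, 17293 genes with 99.9% of counts, TMM, quasi-likelihood F test, Benjamini-Hochberg adjusted p under 0.05), all 11 libraries, no covariate. Fold changes are transgenic over control. Standard errors came from the fold change and F. Log2 CPM used a prior count of 2. GC and length trends were lowess curves (span 0.3) per library, entered as offsets. Counts of any 2 libraries of a group differed beyond sampling noise (chi-square over its degrees of freedom 6.26 to 53.4). Alternatives included DESeq2 1.42.0 and limma 3.58.1 voom. The uncorrected fit was also run on simulated counts that held no GC or length trend, which does not test the removal of those trends.

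The members, the lists and the alternatives were chosen with earlier results of these data known. Values per library are given for each called member and for the 2 members of each family with the highest TPM, and in the further lists for up to 3 called genes with the smallest p. Sirt1 and further list genes were named after their values were seen. Sums, ratios and TPM carry no test.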

Additional observations from a re-analysis of the deposited data

Results flagged for a closer look

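In 62 groups of 5 or 6 libraries (31 genes in each genotype), 3 had a library far from the rest by Dixon's criterion, and chance alone flags about 1 group in 20. Crebbp was at 93.4 CPM in transgenic 1, where the other transgenic libraries had 80.4 to 84.4 CPM. Kat2a was at 73.5 CPM in control 3, below the 78.3 to 79.2 CPM of the other controls. Kat6a was at 85.1 CPM in control 2, below the 92.9 to 94.1 CPM of the other controls. None of these 3 genes was called.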

How the results depend on the processing

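The 5 members that rose and 2 that fell became 3 and 1 with no filter on low counts (662 genes rose in all), and upper-quartile scaling left 1 that fell. Limma voom called 2164 genes higher. With the replicate number as a block 6 members rose and 3 fell, and 2053 genes rose. Same-numbered libraries of the 2 groups did not deviate together (correlations from -0.185 to 0.197, and 1 of 5 numbers matched best with itself). These correlations cannot decide whether the numbers pair samples by litter, which the labels do not give. Removal of the GC trend left 1 member that rose (genes: 200 rose, 142 fell). Removal of the length trend left 0 that fell, and of both trends 1 that rose and 0 that fell (genes: 200 and 94). GC removal with the replicate block gave 1 that rose and 3 that fell (genes: 431 and 315). Without 1 library, members that rose numbered 1 to 6 and those that fell 1 to 4, and genes 361 to 2132 and 794 to 2580. The same with the GC trend removed, an alternative chosen after seeing the data, gave 0 to 2 and 0 to 3 members and 0 to 540 and 0 to 402 genes. No gene was called when any 1 of the 8 libraries other than transgenic 5, transgenic 6 and control 2 was left out, where edgeR gave 2490 to 3225 genes an unadjusted p under 0.05.

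Directions turned only in members that were not called, on the log2 scale as follows. Upper-quartile scaling put Hdac4 at 0.0081, limma put Hdac4 at 0.0010 and Ncoa3 at -0.0029, and the Xist covariate put Hdac1 at 0.024. GC removal put Hdac2 at 0.12, Hdac7 at -0.13, Hdac6 at -0.065, Sirt4 at -0.0045, Sirt6 at -0.049, Kat2a at -0.054, Kat2b at 0.0035 and Ncoa3 at -0.025. Length removal put Hdac4 at 0.18, Kat6b at 0.13, Crebbp at 0.094 and Hat1 at -0.034. Removal of both put Hdac2 at 0.11, Hdac7 at -0.12, Hdac9 at 0.018, Hdac6 at -0.062, Hdac10 at -0.0031, Sirt4 at -0.031, Sirt6 at -0.070, Kat2a at -0.069, Kat2b at 0.00076, Kat6b at 0.045 and Ncoa3 at -0.0024. GC removal with the block put Hdac2 at 0.15, Hdac7 at -0.13, Hdac6 at -0.038, Sirt6 at -0.069, Kat2a at -0.034 and Ncoa3 at -0.022. Leaving out 1 library gave ranges across 0 for Hdac1 (-0.085 to 0.091), Hdac8 (-0.019 to 0.11), Hdac4 (-0.031 to 0.023), Hat1 (-0.034 to 0.10) and Ncoa3 (-0.016 to 0.073). With the GC trend removed they were Hdac1 (-0.12 to 0.057), Hdac10 (-0.024 to 0.077), Sirt4 (-0.048 to 0.040), Sirt7 (-0.022 to 0.032), Kat2b (-0.048 to 0.050), Kat7 (-0.014 to 0.036) and Ncoa3 (-0.060 to 0.036). The causes were not tested. The 7 called members kept their direction in every setting run. Hdac1, at 65 to 219 counts per library, has the least precise level.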
